A study of Rattus norvegicus with 2 samples.

Results

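The mRNAs of the cytosolic ribosomal proteins were examined in rat whole blood after oral administration of lavender oil (LO). The members were all non-control probes whose gene symbol began with Rpl or Rps and a digit or was Rplp0, Rplp1, Rplp2 or Rpsa. Symbols were found through the RefSeq accession printed in the array design. The Rps6k kinase genes and symbols ending in -ps were left out. Copies under other symbols, such as Rpl36al1, Rpl37l1 and Rpl37al2, were kept. There were 96 member probes for 66 genes, out of 41009 probes of the array, of which 10767 carried a symbol. The 66 genes comprised 27 genes of the small (40S) subunit and 39 genes of the large (60S) subunit, and 21 genes had more than 1 probe.

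The LO group were 6 male rats given LO at 5 mg/kg in 10% ethanol, and the control group were 6 male rats given the diluent alone, 0 mg/kg. Both groups were 7 weeks old and dosed into the stomach once daily for 13 days, and blood was taken on day 14. The sample labels give the strain as Wistar in 1 field and as the Fischer strain F334 in the other, and they name the portal vein beside the heart as the source of the blood. The labelled material was 1 RNA pool per group, made from its 6 rats. LO RNA was in the red dye Cy5 on array 1 and in the green dye Cy3 on array 2, with control RNA in the other dye each time. This dye swap amounts to 1 replicate of 1 LO pool against 1 control pool, so no test between conditions was possible, and nothing here measures the spread between rats. The number of arrays limits the precision, and in pooled blood fewer cells of a type and less RNA per cell cannot be told apart.

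Ribosomal proteins, together with the ribosomal RNAs, build the small subunit, which decodes the mRNA, and the large subunit, which joins the amino acids. Cells make them in matched amounts, and their mRNAs are among the most abundant in most cells. In blood they come from white cells, platelets and reticulocytes, the youngest red cells, which still carry ribosomes. Most of these mRNAs begin with a terminal oligopyrimidine tract, a run of C and T at the very 5′ end through which growth signalling adjusts their translation without changing the amount of mRNA.

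A run of C and T near the annotated start was looked for in the promoter sequences of the members, since it is a feature that the choice by symbol did not use. RefSeq promoter sequence of the GRCr8 build was matched for 52 of the 66 genes, with 53 start sites. A run of at least 8 bases of only C and T was the only motif searched for, in the 30 bases made of 15 before and 15 from the annotated start, on the sense strand and on the opposite strand. On the sense strand it was found at 36 of the 53 starts, 67.9%, against 11.4% of the 33469 starts of all genes in that table. On the opposite strand it was found at 1 start of the members, 1.89%, against 13% of all starts. The windows shown are of genes described later at the high end (Rps27, Rpl5) and the low end (Rps15, Rplp0) of the LO/control ratio, of 2 further examples of a run (Rps23, Rpl19), and of 2 genes described later that have no run in the window (Rps6, Rpl11). Each is written 5′ to 3′ on the strand of the gene, with the run in capitals.
Rps27 (chr2:177964592-177964621, minus strand): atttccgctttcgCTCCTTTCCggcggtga
Rpl5 (chr14:1995211-1995240, minus strand): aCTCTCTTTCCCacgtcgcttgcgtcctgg
Rps15 (chr7:10068101-10068130, minus strand): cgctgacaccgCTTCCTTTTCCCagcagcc
Rplp0 (chr12:46718376-46718405, minus strand): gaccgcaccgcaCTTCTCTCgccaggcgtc
Rps23 (chr2:23814502-23814531, plus strand): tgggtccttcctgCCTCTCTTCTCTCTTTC
Rpl19 (chr10:83519049-83519078, plus strand): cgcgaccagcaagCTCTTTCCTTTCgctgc
Rps6 (chr5:106420526-106420555, minus strand): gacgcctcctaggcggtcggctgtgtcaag
Rpl11 (chr5:153560788-153560817, minus strand): ggggacttgaagcttgtttggtgctgggga
A run in this window is a description of the annotated start, and its absence says only that these letters are not in these 30 bases. The run need not begin at the first base of the mRNA, as a terminal oligopyrimidine tract does. That of Rpl5 lies wholly before the annotated start. Genes with and without a run both lay on either side of an LO/control ratio of 1. The genes with a run reached further in both directions, but they were also more numerous, which widens a range. The 36 genes with a run had a median log2 LO/control ratio of 0.0084, from -0.088 to 0.10, and the 16 genes without one had a median of -0.0052, from -0.047 to 0.067. The SD between genes was 0.0495 with a run and 0.0387 without, and the difference was not tested.

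Nearly all members were bright. A probe was taken as measured when the scanner software rated it well above background in all 4 channels, that is both dyes on both arrays. This held for 95 of the 96 member probes, covering all 66 genes, whereas it held for 15371 of all 41009 probes. The exception was a second probe of Rpl28, a large-subunit protein, with signals of 12.8 (LO) and 32.0 (control) on array 1 and 36.0 and 36.9 on array 2. None of these signals was well above background, so no fold is given for this probe, while the other probe of Rpl28 was measured in all channels. The median processed signal of the member probes on array 1 was 28308 (LO) and 28863 (control), and on array 2 it was 28177 and 27434. Over all 41009 probes the corresponding medians were 52.7, 54.8, 62.0 and 59.7. Of the 95 measured member probes 92 lay in the brightest 10% of the measured probes, and 8 of the 100 brightest probes were members. No member feature was saturated.

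With the deposited scaling the ratios of the members were close to 1. For each probe the LO part is the mean of the log2 LO/control ratios of both arrays, in which a dye effect cancels, and the dye part is their half-difference, the log2 ratio of Cy5 over Cy3 that is left. The LO part of the 95 measured member probes had a median of 0.0005 and an SD between probes of 0.048, and it ranged from -0.13 to 0.10. As ratios of LO over control this is 0.916 to 1.07, with the middle quartiles between 0.981 and 1.02. The LO pool was higher for 48 probes and the control pool for 47, a balance that depends on the scaling. With normexp background correction and loess in place of the LOWESS step of the software, 51 probes were above and 44 below 0. With median centring alone 0 probes were above and 95 below 0, with a median of -0.12. As deposited, the median LO part over all 15371 measured probes was -0.0026, the SD 0.12 and the range -1.61 to 0.96. The error that the software gives for each log ratio, carried over to the mean of both arrays, was between 0.14 and 0.18 for the members, or 1.11-fold to 1.13-fold. All 95 members had an LO part smaller than their own error, as had 13674 of all measured probes.

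No member reached a change of 1.2-fold between the pools in either direction. This threshold was passed upwards by 361 of all measured probes, 2.35%, and downwards by 423, 2.75%. At 1.1-fold in either direction the count was still 0 of the 95 members, against 20.7% of all probes. These shares of all probes include dim probes, whose ratios varied more. A comparison with probes of similar brightness follows below. LO was higher on both arrays for 15 members, against 11.7% of all probes, and lower on both arrays for 12, against 12.7%. The other members changed direction when the dyes were exchanged, 23 being higher in LO on array 1 only and 45 on array 2 only. Most of all 15371 measured probes did so too, 6018 being higher in LO on array 1 only and 5608 on array 2 only. The p that the software computes for each spot was under 0.01 on both arrays towards the same pool for 0 of the 96 members and for 9 of all 41009 probes, 0.0219%. Towards the same dye it was under 0.01 on both arrays for 0 members and for 2.64% of all probes. A single member was under 0.05 on a single array, a dim probe of Rpl15 on array 2 with an unadjusted p of 0.049.

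**Figure D1:**
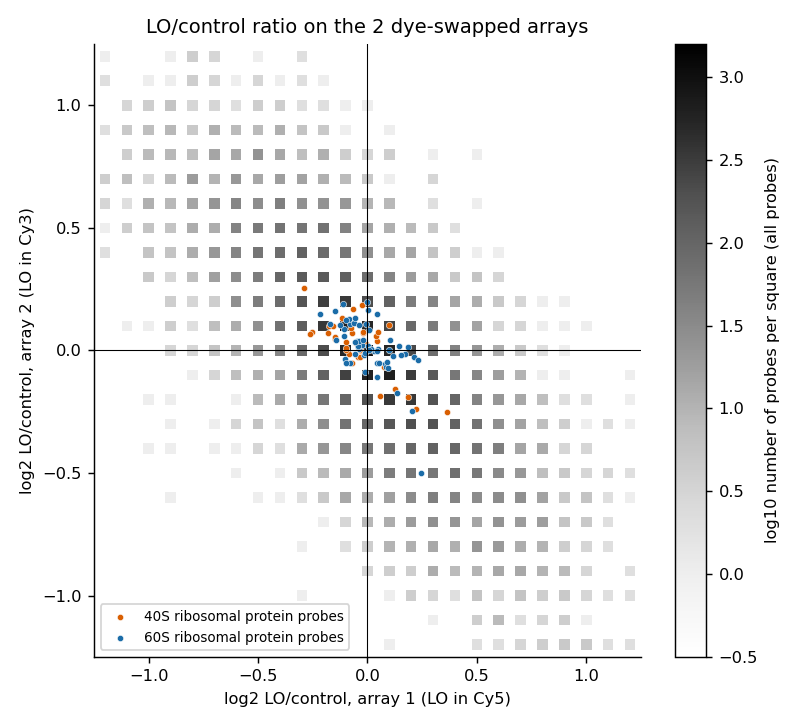
Log2 LO/control ratio on array 1 (horizontal axis) and on array 2 (vertical axis) for the 36 probes of the 40S subunit (orange) and the 59 probes of the 60S subunit (blue), with all 15371 measured probes as grey squares shaded by their number, except 96 beyond 1.2 on either axis. Probes that respond to LO would lie along the rising diagonal and probes with a dye effect along the falling one. The member probes lie close to the centre, spread along the falling diagonal.

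The dye part was larger than the LO part. Among members its SD was 0.10, with a median of -0.024 and a range from -0.27 to 0.37, and 62 of the 95 probes were brighter in Cy3. Over all 15371 measured probes the median dye part was 0.0086, and 7442 were brighter in Cy3. Of the 1538 brightest probes 815 were brighter in Cy3. A dye part of at least 1.2-fold was found for 3 members, against 30.2% of all measured probes. Among these were the dim Rpl15 probe (0.37) and Rps29 (0.31), a zinc-binding protein of the small subunit. Rps29 had signals of 328456 (LO) and 255634 (control) on array 1 and 278397 and 331562 on array 2. The pool labelled with Cy5 was the brighter on either array, so each array alone would put the pools on opposite sides, while the mean ratio of LO over control was 1.04. Rps26, a protein at the mRNA exit of the small subunit, had the next highest dye part (0.23), with signals of 382 and 327 on array 1 and 605 and 713 on array 2. Rpl24, a large-subunit protein, had one of the lowest (-0.18), with 30816 and 35807 on array 1 and 33494 and 30226 on array 2. Across the 95 probes the correlation between the ratios of the arrays was negative (Pearson r = -0.66, Spearman rho = -0.59), as it was across all measured probes (-0.70 and -0.68). These correlations run across probes of the same labelled pools, which are not independent replicates.

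The narrow range of the members went with their brightness. When the measured probes were split by mean signal into 10 bins, the SD of the LO part was 0.18 in the dimmest bin and 0.044 in the brightest, and it was smaller in each brighter bin. The 92 members in the brightest 10% had an SD of 0.046, against 0.044 for all 1538 probes there. Their dye part had an SD of 0.094, against 0.15 for all those probes. The mean ratios of LO over control of all 1538 probes lay between 0.866 and 1.13. The whole bin thus stayed within 1.2-fold, as the members did, although its extremes passed 1.1-fold. For 1531 of the 1538 probes the LO part was smaller than their own error. The LO part of the members was thus about as narrow as that of other mRNAs of similar brightness.

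**Figure D2:**
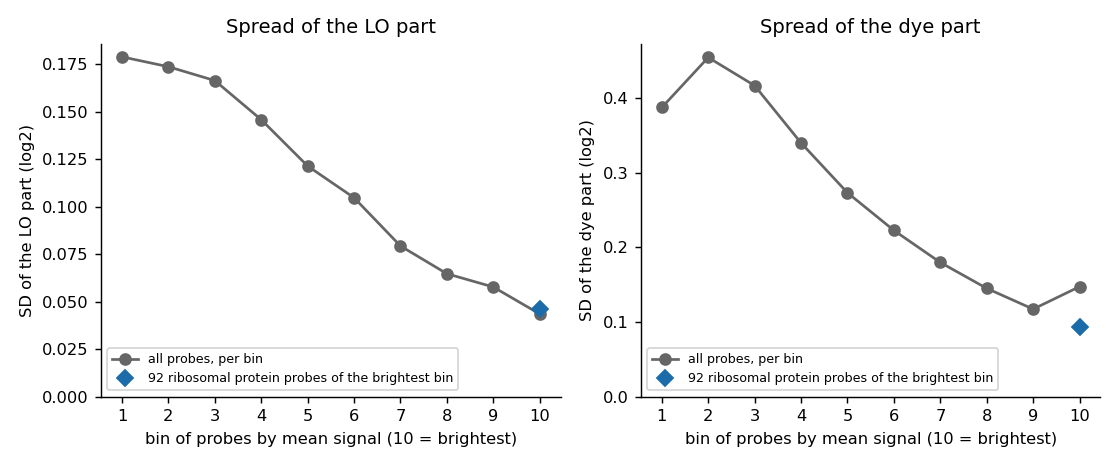
SD (log2) of the LO part (left) and of the dye part (right) in each of 10 equal bins of the 15371 measured probes, ordered by mean signal from 1 (dimmest) to 10 (brightest), as grey points. The blue diamond is the SD of the 92 ribosomal protein probes in the brightest 10%, 0.046 for the LO part and 0.094 for the dye part.

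The scale on which both dyes were set equal moved all members together. The deposited ratios had been put through LOWESS, an intensity-dependent dye correction. With background-subtracted signals that were only centred on the median of each array, the median LO part of the members was -0.12, with 0 probes above and 95 below 0. The median over all measured probes was then -0.074, and the median over the 1446 other probes of the brightest 10% was -0.12. With normexp background correction and loess the median of the members was 0.0023 and that of the other bright probes -0.0029. The members differed from the other probes of the brightest 10% by 0.0028 as deposited, by 0.0007 after median centring and by 0.0052 after normexp and loess. Whether the family as a whole was level with 0 or below it changed with the scaling. The genes at both ends of the range and several others are therefore given also relative to the median of all measured probes, in the order deposited ratios, median centring, normexp with loess. By that measure 11 genes were above it under all 3 scalings, 24 were below it under all 3, and 31 were on different sides. That median includes dim probes, so it is not a reference of similar brightness. After median centring 11 genes were above it and 55 below, against 32 and 34 as deposited and 38 and 28 after normexp and loess. With that centring the other probes of the brightest 10% also lay below it, at -0.12 against -0.074. Sides against probes of similar brightness were not counted.

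At the high end stood Rps27, Rpl5, Rpl14 and Rpl8. Rps27, a zinc-finger protein of the small subunit, had signals of 18182 (LO) and 17009 (control) on array 1 and 18166 and 16896 on array 2. Both arrays gave much the same ratio, 1.07 and 1.08, so LO was higher with either dye, and the dye part was near 0 (-0.0042). Rpl5, which carries a small ribosomal RNA into the large subunit and binds the p53 regulator Mdm2, had 3 probes. Its first probe gave 6290 and 5524 on array 1 and 6281 and 6228 on array 2, a mean ratio of 1.07. Its second probe gave 16744 and 14279, then 15853 and 16308, a mean ratio of 1.07, and the last 7868 and 6984, then 7707 and 7791, a mean ratio of 1.06. All 3 probes of Rpl5 showed a higher LO signal on array 1, and 2 of them a slightly lower one on array 2. Rpl14, a large-subunit protein, had equal signals on array 1 (18986 and 18987) and differed on array 2 (17680 and 15423), a mean ratio of 1.07. Rpl8, which lies close to the site where peptide bonds are formed, had 68079 and 66136 on array 1 and 73590 and 66395 on array 2, a mean ratio of 1.07 with LO higher on both. Relative to the median of all probes these 4 genes were above it under all 3 scalings, Rps27 by 0.10, 0.035 and 0.087, Rpl5 by 0.093, 0.032 and 0.067, Rpl14 by 0.10, 0.043 and 0.078, and Rpl8 by 0.098, 0.046 and 0.11 on the log2 scale. On the plain scale, after median centring, the LO part of all 4 was below 0 (Rps27 -0.040, Rpl5 -0.042, Rpl8 -0.028).

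At the low end were Rps15, Rplp0 and Rpl37l1, beside the dim probe of Rpl15. Rps15, a protein next to the decoding site, had 6842 (LO) and 8150 (control) on array 1 and 7493 and 7108 on array 2, a mean ratio of 0.941. Array 1 put LO lower and array 2 put it higher. Rplp0 forms the base of the stalk that receives the elongation factors, and had 10039 and 10743 on array 1 and 10822 and 11205 on array 2. Its mean ratio was 0.950, with LO lower on both arrays. Rpl37l1, a copy of the gene for a zinc-binding large-subunit protein, was also lower on both arrays, with 216430 and 232582 on array 1 and 199554 and 204295 on array 2. Relative to the median of all probes these 3 genes were below it under all 3 scalings, Rps15 at -0.086, -0.10 and -0.084, Rplp0 at -0.071, -0.10 and -0.071, and Rpl37l1 at -0.066, -0.14 and -0.077. The Rpl15 probe with the lowest LO part was one of the 3 measured members outside the brightest 10%, with 183 and 155 on array 1 and 143 and 203 on array 2. The other probe of Rpl15, a large-subunit protein, gave 0.969 on array 1 and 1.03 on array 2, with a mean ratio of 0.997.

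Across the 3 scalings the order of the genes was largely kept. The LO parts of the 95 probes correlated between the deposited ratios and median centring with r = 0.89, between the deposited ratios and normexp with loess with r = 0.79, and between the latter and centring with r = 0.91. These scalings start from the same arrays, so this describes the processing only. Of the 10 genes with the highest mean LO part 8 were shared by all 3 scalings (Rpl14, Rpl23, Rpl36al1, Rpl5, Rpl6, Rpl8, Rpl9 and Rps27), and of the 10 lowest 6 were shared (among them Rpl37l1, Rpl4, Rplp0, Rps10 and Rps15).

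**Figure D3:**
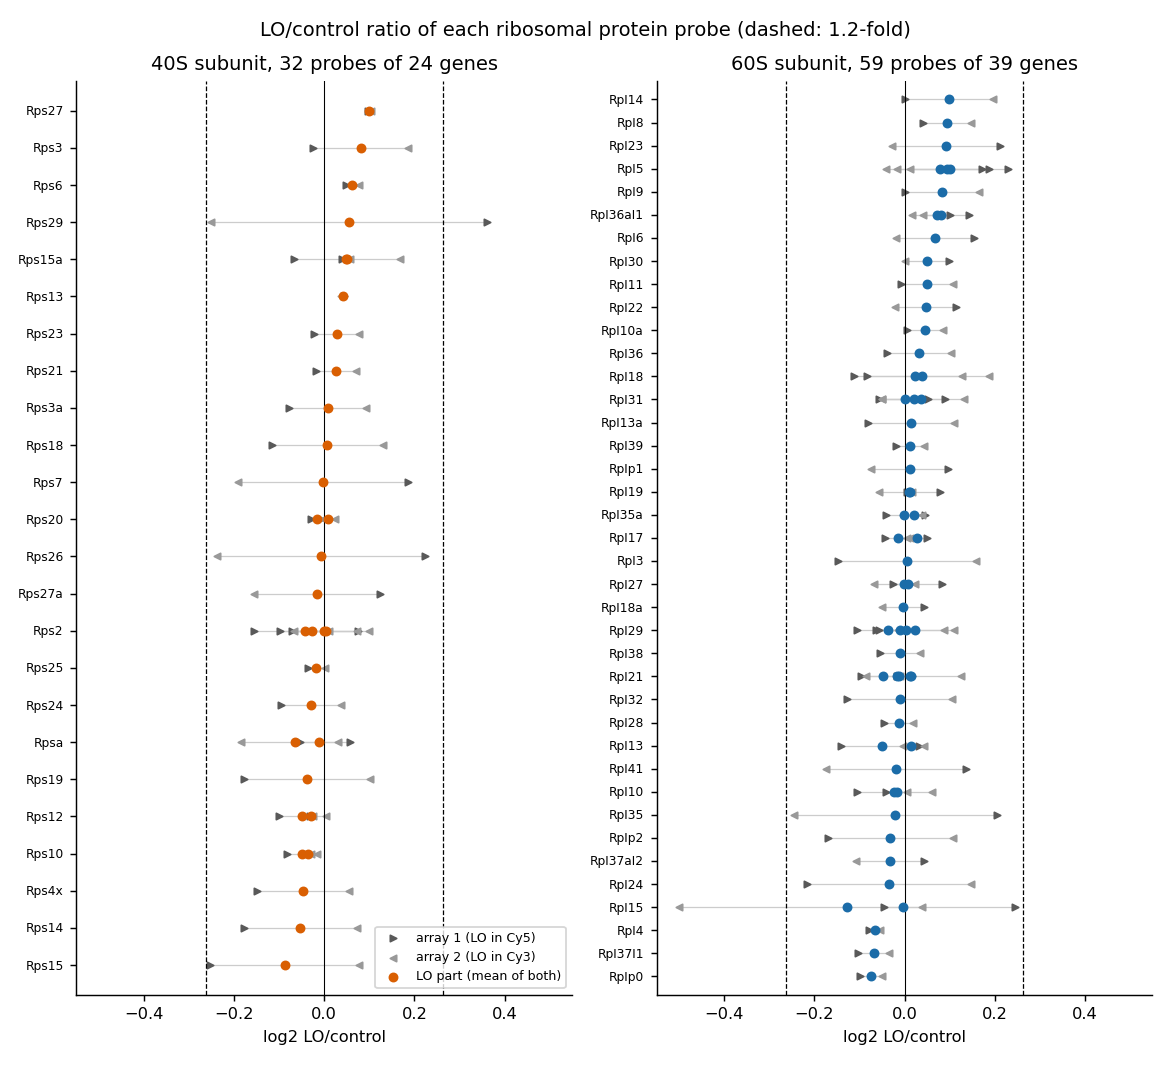
Log2 LO/control ratio (horizontal axis) of each measured probe, by gene, for 32 probes of 24 of the 27 genes of the 40S subunit (left) and 59 probes of all 39 genes of the 60S subunit (right), ordered by the mean LO part. Dark triangles are array 1, light triangles array 2 and coloured points their mean, the LO part; the dashed lines mark 1.2-fold. All coloured points lie between the dashed lines, and for most probes the arrays fall on opposite sides of 0.

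The stalk of the large subunit is made by Rplp0 with the acidic proteins Rplp1 and Rplp2. Rplp1 was printed on 10 spots, of which 1 was flagged on array 2 and left out. It shows for 1 bright probe how far repeated spots of the same pools differ. Over its 9 spots the mean signals were 299732 (LO) and 280337 (control) on array 1 and 264012 and 277745 on array 2. Array 1 gave a log2 LO/control ratio of 0.096 ± 0.047 and array 2 one of -0.073 ± 0.075 (SD, n = 9 spots). The LO part was 0.011 ± 0.021, from -0.023 to 0.038 between spots, so it did not differ from 0 beyond the spread of the spots, and the dye part was 0.085 ± 0.059. Over the 105 measured probes with repeated spots the median SD between spots was 0.053 for the LO part and 0.055 for the dye part. Rplp2 had 48185 and 54236 on array 1 and 54171 and 50283 on array 2, a mean ratio of 0.978. Among the stalk genes only Rplp0 thus kept its direction on both arrays. Rpsa, the small-subunit protein also known as the laminin receptor, had 2 probes with mean ratios of 0.957 and 0.992.

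Members known for roles beyond the ribosome or in disease lay within the same range. Rpl11, which acts with Rpl5 on Mdm2, had 38395 and 38601 on array 1 and 39271 and 36478 on array 2, a mean ratio of 1.03, and lay at 0.052, -0.035 and 0.0002 relative to the median of all probes under the 3 scalings. Rps6, the substrate of the S6 kinases, had 98029 and 94849 on array 1 and 94620 and 89728 on array 2. Its mean ratio was 1.04, with LO higher on both arrays, but relative to the median of all probes it was at 0.065, -0.013 and 0.014 under the 3 scalings. Rps19, the gene most often mutated in the inherited anaemia named after Diamond and Blackfan, had 28440 and 32171 on array 1 and 31368 and 29246 on array 2. Its mean ratio was 0.974. Rps14, whose single-copy loss underlies the anaemia of a human myelodysplastic syndrome, had 37717 and 42690 on array 1 and 41362 and 39357 on array 2, a mean ratio of 0.964. Rps19 and Rps14 shared the pattern of Rps15, with LO lower on array 1 only, so the direction changed with the dye. Relative to the median of all probes Rps14 was below it under all 3 scalings (-0.051, -0.10 and -0.049), whereas Rps19 changed sides (-0.036, -0.042 and 0.018).

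Rps3, which lines the entry of the mRNA and also acts in DNA repair, had a mean ratio of 1.06, with 18007 and 18310 on array 1 and 19360 and 17030 on array 2. Rpl13a, known also from the silencing of inflammatory mRNAs, had 85867 and 90797 on array 1 and 78968 and 73212 on array 2, a mean ratio of 1.01. Both had a negative dye part. Rps27a is made as a fusion with ubiquitin, and had 57299 and 52564 on array 1 and 53896 and 60068 on array 2, a mean ratio of 0.989. Rps4x, encoded on the X chromosome, had 17547 and 19466 on array 1 and 16997 and 16355 on array 2, a mean ratio of 0.968. Rpl10, which is added late in the assembly of the large subunit, had 2 probes with mean ratios of 0.984 and 0.988. For each of these genes the arrays gave opposite directions. Relative to the median of all probes Rps3 was above it under all 3 scalings, Rps4x and Rpl10 were below it under all 3, and Rpl13a and Rps27a changed sides.

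The subunits were set side by side, with no test. The 36 probes of the small subunit had a median LO part of -0.016, with 14 above and 22 below 0, and the 59 probes of the large subunit one of 0.010, with 34 above and 25 below 0. The SD between the probes was 0.046 and 0.047. The median of the large subunit was higher by 0.027. After median centring this difference was 0.019 and after normexp and loess 0.017, and with 1 value per gene it was 0.022, 0.010 and 0.0008. Probes of both subunits were more often brighter in Cy3, 29 of 36 and 33 of 59. For comparison, this held for 7442 of all 15371 measured probes and for 815 of the 1538 brightest.

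Probes of the same gene are different oligonucleotides that share the labelled RNA, so their agreement can be compared between the LO part and the dye part. For the 20 genes with at least 2 measured probes, 49 probes in all, the SD of the LO part was 0.026 between probes of a gene and 0.041 between gene means, a ratio of 1.55. For the dye part the corresponding SDs were 0.081 and 0.064, a ratio of 0.787. Without the dim Rpl15 probe, left out after the values were seen, the LO part gave 0.021 and 0.039, a ratio of 1.84, and the dye part 0.061 and 0.051. After median centring the ratio was 2.52 for the LO part and 1.13 for the dye part, and after normexp and loess it was 2.05 and 0.784. Other genes of the array with at least 2 measured probes had a ratio of 0.799 for the LO part and 0.786 for the dye part (636 genes), and those in the brightest 10% had 1.13 and 1.16 (33 genes). With the deposited ratios the SD between probes of a ribosomal protein gene was thus smaller than that between gene means in the LO part and larger in the dye part. After median centring it was smaller in both. A gene mean averages at least 2 probes, which narrows the spread of gene means. A ratio under 1 therefore does not show that probes of a gene share no dye part. All probes had the same sign of the LO part in 12 of the 20 genes, against 321 of the 636 other genes and 23 of the 33 other genes in the brightest 10%.

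Genes whose probes lay close together included Rpl5, with 3 probes from 0.078 to 0.10, and Rpl36al1, with 0.071 and 0.081. Rpl36al1 is a copy of a large-subunit gene, and its signals were 7856 (LO) and 7321 (control) on array 1 and 7970 and 7746 on array 2 for the first probe, and 7756 and 7020, then 6874 and 6791, for the second. LO was higher on both arrays with both probes, and relative to the median of all probes the gene was at 0.079, 0.025 and 0.091 under the 3 scalings. Rps15a, a small-subunit protein, had 0.049 and 0.050 in the LO part although its dye parts were -0.0088 and -0.12, and it changed sides relative to the median of all probes (0.052, -0.0011 and 0.041). On the other side were Rps12, with -0.049 and -0.029, and Rps10, with -0.049 and -0.035, both of the small subunit. Rps10 is known from families with Diamond and Blackfan's anaemia. Probes of Rpl21 (5 probes, -0.049 to 0.014), Rps2 (4 probes, -0.044 to 0.0031) and Rpl29 (4 probes, -0.036 to 0.024) spread to both sides of 0. Ribosomal protein genes have many processed copies in the genome, and a probe may also bind transcripts of a near-identical copy such as Rpl36al1, Rpl37l1 or Rpl37al2, so values of these genes are uncertain as to the copy.

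**Figure D4:**
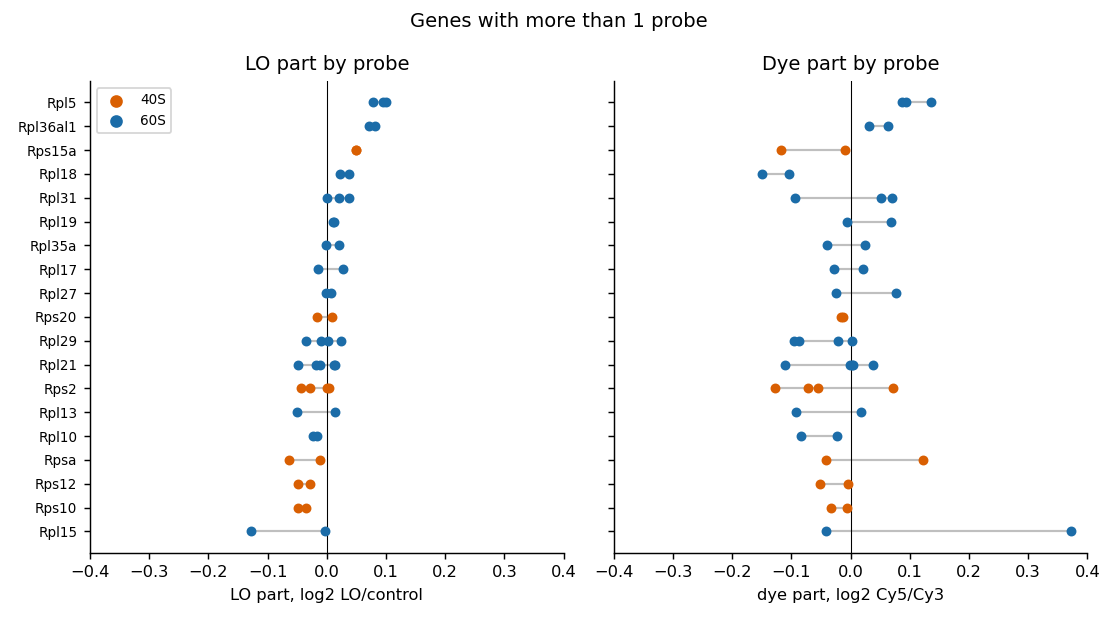
LO part (left, log2 LO/control) and dye part (right, log2 Cy5/Cy3) of each measured probe of 19 of the 20 genes with more than 1 measured probe, ordered by the mean LO part; orange is 40S, blue 60S, and the grey line spans the probes of a gene. Probes of a gene lie closer together on the left (SD 0.026 over the 20 genes) than on the right (SD 0.081).

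Genes that work with the ribosomal proteins were read from the same arrays, and 1.2-fold was passed by 1 of their probes. Ribosome-bound proteins and fusion genes that also give a ribosomal protein had 4 measured probes with a median LO part of -0.016. Of these the ribosome-bound Rack1 had -0.027, and the probes of the fusion gene Fau had -0.019 and -0.013. The elongation factors Eef1a1, which brings the transfer RNA, and Eef2, which moves the ribosome along, had LO parts of -0.045 and -0.076, and Eef1d, which recharges Eef1a1, had 0.0085. Initiation factors and other mRNAs known for a terminal oligopyrimidine tract had 18 measured probes of 8 genes with a median of 0.018, from -0.18 to 0.091, 10 above and 8 below 0. Among these Pabpc1, which binds poly(A) tails, had 0.082, the nucleolar protein Npm1 had 0.041, 0.048 and 0.058 for its 3 probes, and Tpt1, the translationally controlled tumour protein, had -0.11, -0.067 and -0.028. The dye part of the Tpt1 probes reached 0.49.

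Ribosome biogenesis genes, which make and process the ribosomal RNA, had 14 measured probes of 12 genes with a median LO part of 0.063, 10 above and 4 below 0. Rrs1, an assembly factor of the large subunit, had the highest value (0.13) at signals of 106 (LO) and 73.6 (control) on array 1 and 95.3 and 115 on array 2. Nolc1, a nucleolar chaperone, had the lowest (-0.15) in 1 of its 2 measured probes and -0.014 in the other. Fbl, which methylates ribosomal RNA, had 0.066, and nucleolin (Ncl) 0.063. All 14 probes lay below the brightest 10%, where the SD of the LO part was 0.044, and in the dimmest 10% the SD was 0.18. The proteins of the mitochondrial ribosome had 21 measured probes of 19 genes with a median of -0.0024, from -0.44 (Mrpl16) to 0.24 (Mrpl46). Mrpl16 was the 1 probe past 1.2-fold, downwards.

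Markers of blood cells were read in the same way, and their part in the values of the ribosomal proteins was not tested. Of the 8 listed red cell genes 3 were found by symbol, and a gene not found may still be on the array. All 3 were measured, with a median LO part of -0.067 over 4 probes. It ranged from -0.088 for Alas2, the first enzyme of haem synthesis in red cells, to 0.0012 for a probe of the anion exchanger Slc4a1. The summed signals of the red cell genes gave LO/control ratios of 1.497 (array 1) and 0.620 (array 2), and Alas2 had a dye part of 1.11 and the globin gene Hbb one of 0.55. Platelet genes (5 of 6 found) had a median of -0.0090 and summed ratios of 1.07 and 0.931. Neutrophil genes (5 of 6 found) had a median of 0.11, with 4 of 5 above 0, and summed ratios of 1.02 and 1.09. T cell genes (5 of 7 found) had a median of 0.067, with 4 of 5 above 0 and Cd2 at -0.22, and summed ratios of 1.03 and 1.07. The neutrophil genes Cxcr2 and Mmp8 and the T cell gene Cd2 were dim, with signals from 142 to 248. In the 2 bins of probes with a mean signal from 163 to 291 the SD of the LO part was 0.15 and 0.12. Marker values were read with the deposited scaling only. Of the B cell genes 1 of 5 was found, Cd79b with 0.10. The members' own summed signals gave 1.01 and 0.986. Liver and plasma protein genes, looked at because of the portal vein named in the labels, were measured for 1 of 7 probes, Alb at signals of 76.5 to 112.

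**Figure D5:**
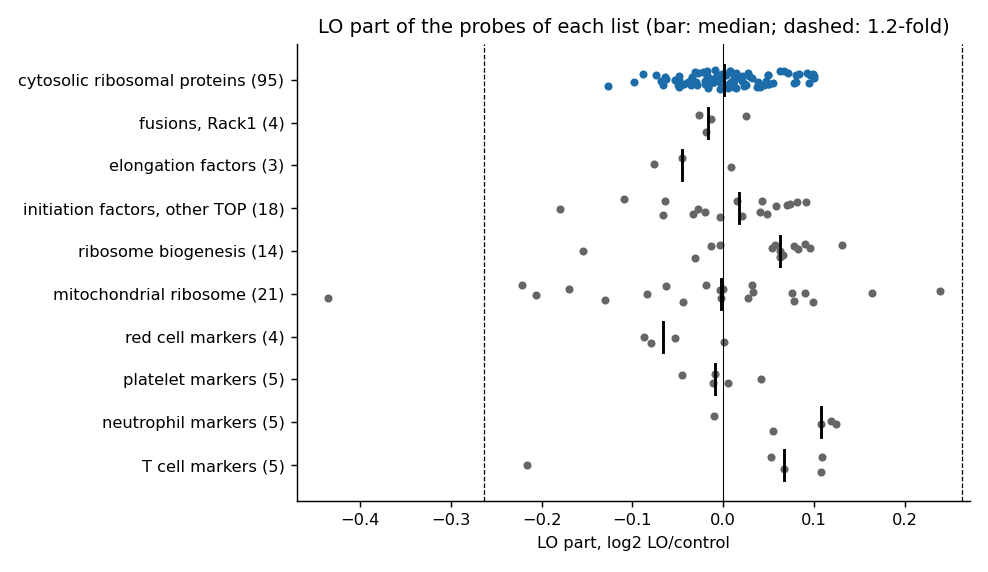
LO part (log2 LO/control, horizontal axis) of each measured probe of the cytosolic ribosomal proteins (blue) and of the related and marker gene lists (grey), with the number of probes in brackets, the median as a bar and 1.2-fold as dashed lines; vertical scatter within a row has no meaning. The 95 ribosomal protein probes lie between -0.13 and 0.10, and Mrpl16 of the mitochondrial ribosome is the only point outside the dashed lines.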

How the data were processed

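The authors scanned 2 arrays of the 4x44K rat whole genome design and extracted them with Agilent Feature Extraction 11.0.1.1, which subtracted background and normalized the dyes by LOWESS. The deposited scanner output holds for each feature the intensity of each channel as median and processed signal, the log10 ratio of Cy5 over Cy3 with its error, an unadjusted p-value of its error model and quality flags. A value table of the authors gives log10 Cy5/Cy3 computed from the processed signals.

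The deposited ratios were converted to log2 LO/control, with the direction taken from the dyes in the labels. Control spots and features flagged as non-uniform or population outliers on either array (338) were left out, spots of a probe were averaged, and the p of a probe was the median over its spots. Unless stated, probes had to be well above background in all 4 channels. Symbols came from unversioned RefSeq accessions through a GRCr8 gene table that served for names and promoter sequence, while the array was designed on an older build. Genes without a matched probe are not analysed here. The members, gene lists and named genes were chosen with earlier results of these data known. Values were given for the stalk genes and Rpsa, genes with known other roles, copies, the 5 highest and 5 lowest LO parts, the 3 highest and 3 lowest dye parts, genes with several probes and dim members. Some of these genes are counted in all totals but are not reported here by name. Alternatives were median centring without LOWESS, limma's normexp (offset 50, on median signals) with loess, the value table, other filters, medians over spots, 1 value per gene and each array alone. The computation was tested on simulated data. Software was R 4.3.3 (limma 3.58.1) and Python 3.11.15 (numpy 2.4.6, pandas 2.3.3, scipy 1.17.1, matplotlib 3.10.9).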

Additional observations from a re-analysis of the deposited data

How the results depend on the processing

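With the dyes only centred on the array median, the median LO part of the members was -0.12 in place of 0.0005, their median dye part 0.57 in place of -0.024 and the SD of the dye part 0.14 in place of 0.10. With normexp and loess the median dye part was -0.037, and with 1 value per gene -0.031. Without the filter on dim probes, which adds the dim Rpl28 probe, the SD of the LO part was 0.084 and that of the dye part 0.12, and 1 member passed 1.2-fold. In the brightest 10% of probes, an alternative chosen after seeing the data, the SD of the dye part was 0.094. With each array alone, where the dye part does not cancel, the SD of the ratio was 0.11 to 0.12 and 1 to 2 members passed 1.2-fold. The count of members past the p threshold on both arrays was 0 under all alternatives run. Of the 41 named genes 24 moved by more than the SD of their arrays after median centring and 5 after normexp and loess. That SD is set by the dye part, so these counts do not measure noise. Rps27, with an SD of 0.0059, counted as moved when its LO part went from 0.10 to 0.088 after normexp and loess. Rps29, with an SD of 0.43, did not when its LO part went from 0.055 to -0.074 after median centring. The largest shift of a gene was 0.16 after median centring and 0.10 after normexp and loess. The value table and medians over spots moved none. Counted over all 41 genes, moved or not, the sign was the other one for 18 after median centring and 11 after normexp and loess. It was the other one for 19 with array 2 alone and 10 with array 1 alone. No paired analysis was possible because both arrays hold the same 2 pools and are 1 replicate. A difference between pools under about 1.11-fold was within the error of a single member probe, and the spread between rats was not measured.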
